A study of Pyronema omphalodes CBS 100304 with 9 samples.

Results

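Transcripts of 3 genes were followed in the soil ascomycete Pyronema omphalodes CBS 100304, also known as Pyronema confluens, which forms disc-shaped fruiting bodies called apothecia. The genes were chosen by locus tag among 13369 gene models: PCON_03267, described in the deposited table as a superoxide-generating NADPH oxidase, PCON_13421, described as Striatin Pro11, and PCON_03897, described only as Striatin. RNA sequencing covered 4 groups with 9 libraries in all. Young fruiting bodies, the protoapothecia, gave 3 libraries (A, B and C) described as independent biological replicates. They came from microdissection slides with 150 µl of agar medium (WPC, 0.8% agar) kept at 25 °C for 4 days, were fixed in cold ethanol and cut out by laser, and their RNA was amplified linearly. Sexual mycelium (2 libraries) was grown on the surface of WPC in constant light. Vegetative mycelium (2 libraries) was grown likewise but in constant darkness, and both groups pooled RNA of days 3, 4 and 5. The vegetative pool (2 libraries) mixed RNA from 3 kinds of culture, all grown for 3 days: submerged in WPC in constant light, submerged in WPC in constant darkness, and on the surface of BMM medium in constant darkness. Mycelium RNA came from an earlier study and was extracted in bulk, and its protocol names neither microdissection nor amplification. Tissue and RNA preparation therefore cannot be told apart wherever protoapothecia are compared with mycelium. No label gives the light conditions of the slides. The labels call each mycelium library a technical replicate of a numbered sample, and none says whether the numbered samples stem from separate cultures. The SDs of mycelium groups, and p-values that involve them, therefore rest on differences between libraries that may be technical only.

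NADPH oxidases are membrane enzymes that pass electrons from NADPH to oxygen and so make superoxide. In fungi they work with a regulator of the p67phox type (NoxR), with the small GTPase Rac and with the polarity proteins Cdc24 and Bem1, and in Sordaria macrospora and Podospora anserina they are needed for fruiting-body development. Striatins are scaffold proteins that hold the STRIPAK complex together, which joins the protein phosphatase PP2A to germinal centre kinases and to the proteins known as phocein and FAM40 (STRIP). The striatin of Sordaria macrospora, PRO11, is needed for the maturation of its fruiting bodies and for fusion between hyphae.

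The gene models differ in what they encode. PCON_03267 lies on scaffold 142 at positions 75598 to 77743 on the minus strand, in the coordinates of the deposited table, with 3 exons and a protein of 547 residues. Its Pfam domains are a ferric reductase-like transmembrane domain and FAD- and NAD-binding domains, a set that 9 gene models carry together. Of these 9 models, 2 are described as an NADPH oxidase and 7 as a ferric reductase or metalloreductase. The other gene described as an NADPH oxidase, PCON_03126, lies on scaffold 1375 at 131929 to 134785 on the minus strand, with 8 exons and 579 residues. PCON_13421 lies on scaffold 845 at 281765 to 284802 on the plus strand, with 4 exons and 702 residues, and is the only gene model in the table with a Pfam Striatin domain (1 of 13369), alongside WD40 repeats. PCON_03897 lies on scaffold 152 at 41824 to 43671 on the minus strand, with 2 exons and 529 residues. Its only Pfam domain is WD40, which 106 gene models carry, so the domain annotation does not bear out its description as a second striatin. It is called the WD40 gene PCON_03897 here. None of these genes overlaps another gene model.

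Total counts were 5583951 in protoapothecia B and 14265890 to 24803660 in the other 8 libraries. Levels are CPM (counts scaled to a common library size) using edgeR's TMM factors. A level of 3 counts, the upper limit that a count of 0 allows, is 0.642 CPM in protoapothecia B and 0.112 to 0.202 CPM elsewhere, for counting error alone. Of 11787 genes tested, 3146 were higher and 4071 lower in protoapothecia than in sexual mycelium at an edgeR adjusted p below 0.05, the threshold used throughout. This split depends on scaling: without scaling factors it was 2190 higher and 5233 lower, and the median log2 fold change of all genes was −0.69, against −0.14 with TMM and 0.03 with edgeR's RLE factors. Of 4 sexual markers (mating-type proteins and pheromone receptors), 1 was called higher in protoapothecia than in sexual mycelium and 3 higher than in each vegetative group. Of all genes tested, 26.7% were called higher against sexual mycelium, 36.4% against vegetative mycelium and 34.8% against the vegetative pool. The mating-type a-1 gene (PCON_08389) averaged 105 CPM in protoapothecia and 134 to 166 CPM in the mycelium groups, without a call. The summed level of the 4 markers was 227.8 to 375 CPM in protoapothecia, 230.8 to 325.8 CPM in sexual mycelium and 160 to 177 CPM in the vegetative libraries, and none of the defining markers was at 0 throughout protoapothecia.

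The NADPH oxidase gene PCON_03267 was lowest in protoapothecia, low in sexual mycelium and high in both vegetative groups. It had 2.79, 0.856 and 3.16 CPM in protoapothecia A, B and C. Sexual mycelium had 10.3 and 6.26 CPM, vegetative mycelium 152.2 and 130.8 CPM, and the vegetative pool 61.6 and 79.3 CPM. No 2 groups overlapped, but groups of 2 or 3 libraries separate easily. The share of all genes that separate likewise was not counted, and PCON_03126, called in no comparison, also separated the mycelium groups. The highest library, of vegetative mycelium, stood far above the lowest, protoapothecia B, which rests on 4 counts. The group means were 2.27 ± 1.24 CPM in protoapothecia (SD, n = 3), 8.26 ± 2.83 CPM in sexual mycelium, 141.5 ± 15.1 CPM in vegetative mycelium and 70.4 ± 12.5 CPM in the vegetative pool (SD, n = 2 each).

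PCON_03267 fell in protoapothecia against every mycelium group. Against sexual mycelium the log2 fold change was −1.73 (SE 0.394, 95% interval −2.61 to −0.84, edgeR adjusted p = 0.00425), in a comparison that called 34.5% of genes tested lower and 26.7% higher. Against vegetative mycelium it was −5.83 (SE 0.427, edgeR adjusted p = 4.15e-06), where 32.8% of genes were called lower and 36.4% higher. Against the vegetative pool it was −4.82 (SE 0.413, edgeR adjusted p = 1.01e-05), where 34.4% were called lower and 34.8% higher. A lower call was therefore common among all genes in these comparisons. In bulk samples, fewer cells with a transcript and less of it per cell cannot be told apart.

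The same gene also separated the mycelium groups, which share their mode of RNA preparation. It was lower in sexual mycelium than in vegetative mycelium by a log2 fold change of −4.10 (SE 0.458, edgeR adjusted p = 0.000232), a direction in which 9.0% of genes tested were called, against 20.6% called higher. Against the vegetative pool, sexual mycelium was lower by −3.09 on the log2 scale (SE 0.438, edgeR adjusted p = 0.000841), with 9.48% of genes called lower and 19.8% higher. Sexual and vegetative mycelium differ in light as well as in development, which cannot be told apart here. The vegetative pool mixes light and dark cultures, submerged and surface growth and different media, so it does not separate them either. Between vegetative mycelium and the vegetative pool the log2 fold change was 1.01 (SE 0.405, 95% interval 0.09 to 1.92) and missed the threshold (edgeR adjusted p = 0.225), in a comparison with 1.79% of genes called higher and 3.41% lower. Fitted on these 2 groups alone, that difference passed (log2 fold change 1.02, edgeR adjusted p = 0.0125).

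**Figure D1:**
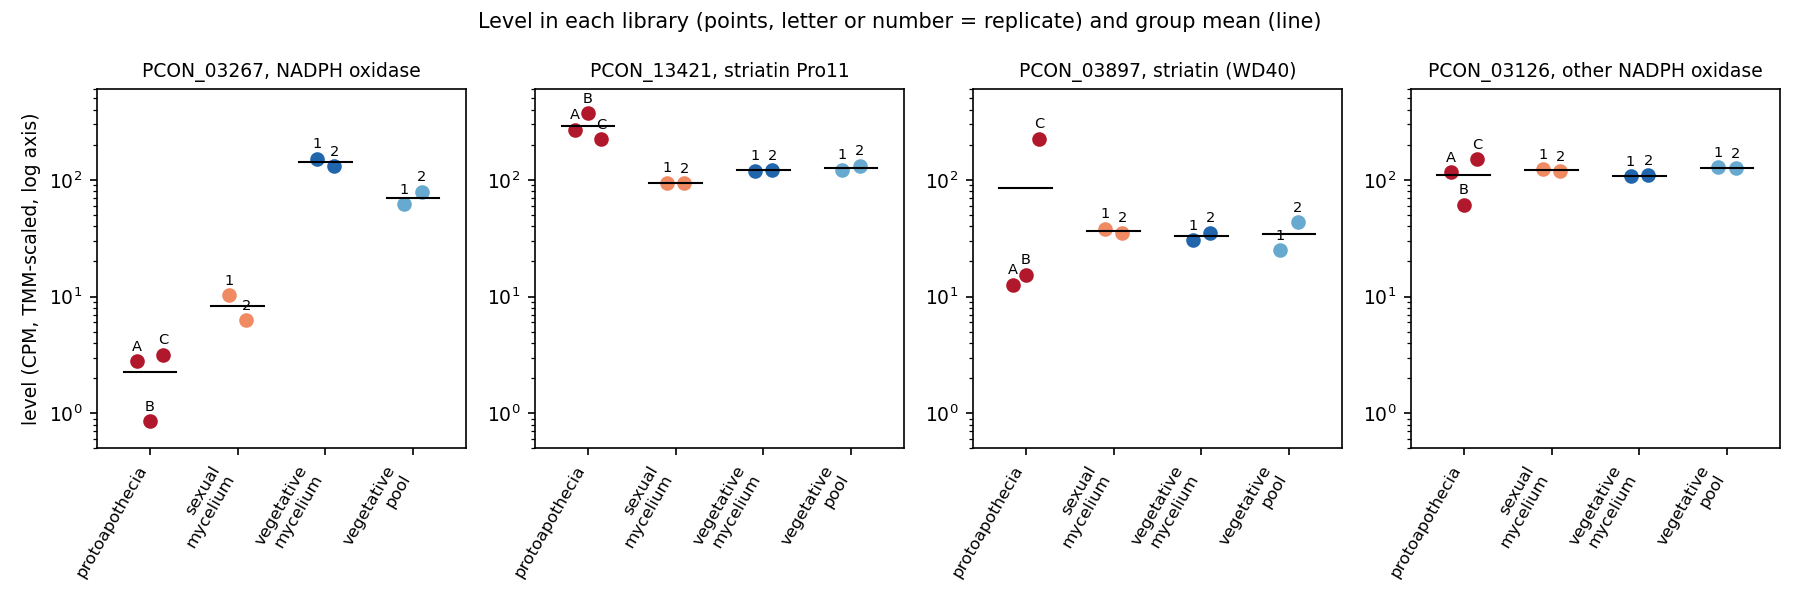
Level of the 3 genes and of the other NADPH oxidase gene, PCON_03126, in each library (CPM on a log axis, TMM-scaled), by group, with letters or numbers for replicates and a line at the group mean. PCON_03267 spans 0.856 to 152.2 CPM, PCON_13421 is highest in the 3 protoapothecium libraries, and PCON_03897 is at 225.6 CPM in protoapothecia C against 12.6 and 15.4 CPM in A and B.

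The other NADPH oxidase gene, PCON_03126, was not called in any of the 6 comparisons. It had 116.3, 61.0 and 150.9 CPM in protoapothecia A, B and C, 123.7 and 118.3 CPM in sexual mycelium, 106.8 and 110 CPM in vegetative mycelium, and 127.8 and 125.8 CPM in the vegetative pool. Protoapothecia spread over all the mycelium libraries. Its log2 fold change in protoapothecia against sexual mycelium was −0.14, with a 95% interval of −0.86 to 0.58. Per kilobase of mRNA, PCON_03267 stood below PCON_03126 by log2 ratios of −5.05, −5.66 and −5.24 in protoapothecia and of −3.27 and −3.91 in sexual mycelium. The ratio was 0.83 and 0.57 in vegetative mycelium, where PCON_03267 was the higher of the pair, and −0.73 and −0.34 in the vegetative pool. How reads shared by both genes were counted is not given in the sources used here, so sharing between them was not tested.

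Striatin Pro11, PCON_13421, was highest in protoapothecia and varied little among the mycelia. It had 269.4, 370.2 and 224 CPM in protoapothecia A, B and C, from 5410, 1731 and 4531 counts. Sexual mycelium had 94.7 and 94.0 CPM, vegetative mycelium 120.2 and 121.4 CPM, and the vegetative pool 122.6 and 132 CPM. Every protoapothecium library lay above every mycelium library, though the share of all genes that separate likewise was not counted. Protoapothecia averaged 287.9 ± 74.8 CPM (SD, n = 3), against 94.4 ± 0.474 CPM in sexual mycelium, 120.8 ± 0.853 CPM in vegetative mycelium and 127.3 ± 6.66 CPM in the vegetative pool (SD, n = 2 each).

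PCON_13421 rose in protoapothecia against all 3 mycelium groups. The log2 fold change was 1.61 against sexual mycelium (SE 0.246, 95% interval 1.05 to 2.16, edgeR adjusted p = 0.000427), 1.25 against vegetative mycelium (SE 0.242, edgeR adjusted p = 0.00134) and 1.18 against the vegetative pool (SE 0.241, edgeR adjusted p = 0.00191). Against sexual mycelium it was 1.06 without scaling factors (edgeR adjusted p = 0.0043) and 1.82 with RLE factors. A higher call was common among all genes. Of genes tested, 26.7% were called higher against sexual mycelium, 36.4% against vegetative mycelium and 34.8% against the vegetative pool. Among the mycelia no comparison of PCON_13421 passed. Sexual mycelium differed from vegetative mycelium by −0.36 on the log2 scale (95% interval −0.93 to 0.22, edgeR adjusted p = 0.353) and from the vegetative pool by −0.43 (edgeR adjusted p = 0.256). The comparison with the pool passed when the mycelium libraries were fitted alone (−0.43, edgeR adjusted p = 0.0286). Vegetative mycelium and the vegetative pool differed by −0.08 (edgeR adjusted p = 0.943).

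The WD40 gene PCON_03897 gave no common value for protoapothecia, because library C stood apart. Protoapothecia A, B and C had 12.6, 15.4 and 225.6 CPM, from 254, 72 and 4563 counts. Sexual mycelium had 38.0 and 35.1 CPM, vegetative mycelium 30.5 and 35.2 CPM, and the vegetative pool 24.9 and 43.4 CPM. Protoapothecia A and B lay below all 6 mycelium libraries and C lay above all 6. The mean in protoapothecia, 84.6 ± 122.2 CPM (SD, n = 3), therefore describes none of the 3 libraries. The mycelium means were 36.6 ± 2.06 CPM in sexual mycelium, 32.9 ± 3.32 CPM in vegetative mycelium and 34.1 ± 13.1 CPM in the vegetative pool (SD, n = 2 each).

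With all libraries, PCON_03897 was not called in any of the 6 comparisons. Its log2 fold change in protoapothecia was 1.22 against sexual mycelium (SE 1.06, 95% interval −1.16 to 3.6, edgeR adjusted p = 0.342), 1.37 against vegetative mycelium (edgeR adjusted p = 0.273) and 1.32 against the vegetative pool (edgeR adjusted p = 0.290). Without protoapothecia C all 3 changed sign and passed the test: −1.36 against sexual mycelium (edgeR adjusted p = 0.00505), −1.21 against vegetative mycelium (edgeR adjusted p = 0.00753) and −1.26 against the vegetative pool (edgeR adjusted p = 0.00642). DESeq2 gave no p-value for this gene. Among the mycelia its log2 fold changes were 0.15 for sexual against vegetative mycelium, 0.10 for sexual mycelium against the pool and −0.05 for vegetative mycelium against the pool, with edgeR adjusted p from 0.940 to 1. The spread estimate behind those p-values is shared with library C. Fitted on mycelium libraries alone, sexual against vegetative mycelium gave 0.16 with an SE of 0.259 (edgeR adjusted p = 0.653), where the SE with all libraries was 1.12.

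The excess of library C at PCON_03897 was unusual but not unique. Of 7381 genes that reached 10 CPM in a protoapothecium library, 59 (0.799%) were at least 10-fold higher in C than in both A and B. The corresponding count was 1 gene for A and 0 genes for B. At PCON_03897, C was 14.7-fold above the higher of A and B, a ratio that 44 of the 7381 genes reached. PCON_03267 and PCON_13421 showed no such excess, with C at 1.13 and 0.605 times the higher of A and B.

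**Figure D2:**
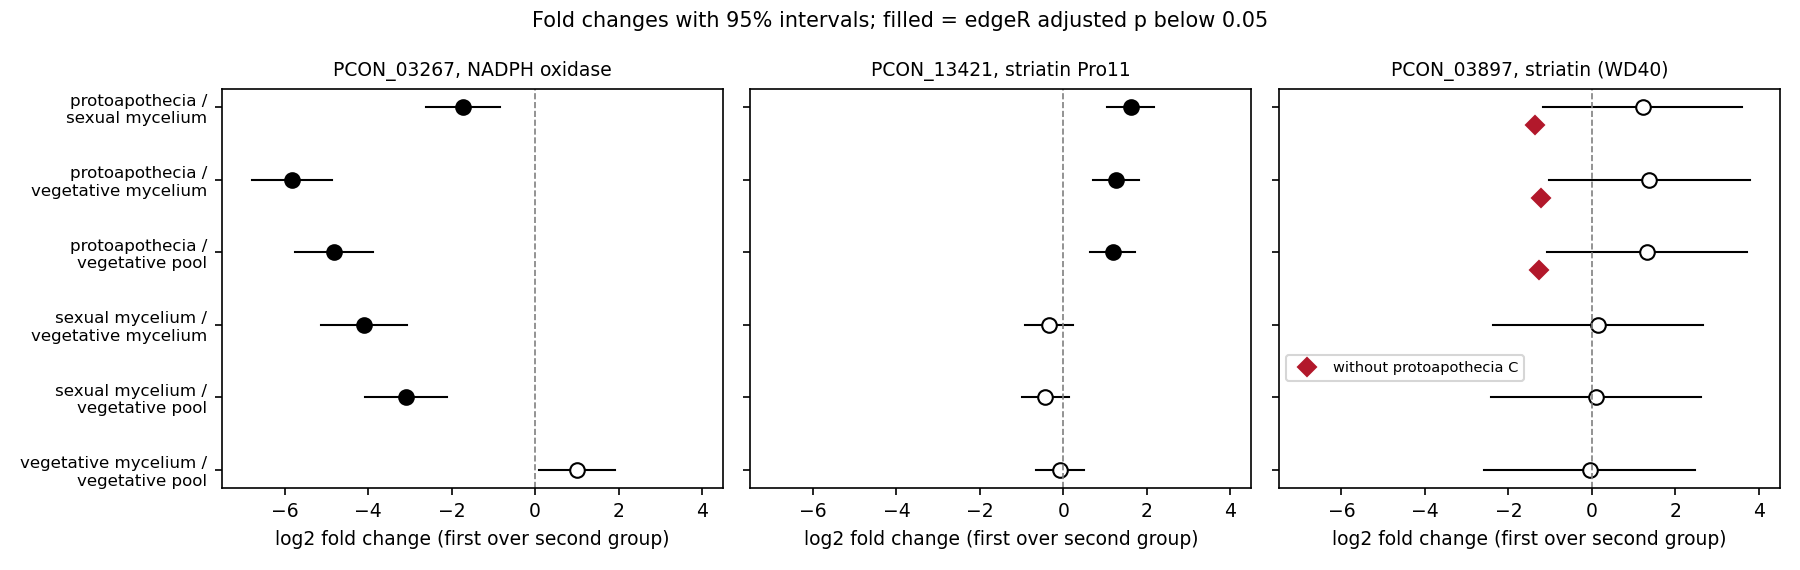
Log2 fold change of each gene (first named group over second) in the 6 comparisons, with 95% intervals from the fit over all 9 libraries; filled circles have an edgeR adjusted p below 0.05 and diamonds show PCON_03897 without protoapothecia C. PCON_03267 lies left of 0 in 5 comparisons, PCON_13421 right of 0 in the 3 with protoapothecia, and the 3 diamonds lie at −1.36, −1.21 and −1.26.

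The authors' deposited table holds consensus calls of −1, 0 or 1 for the same comparisons, given here in the direction of the first named group. It calls PCON_03267 lower in 5 of 6 comparisons, all except vegetative mycelium against the vegetative pool. The authors' deposited table calls PCON_13421 higher in protoapothecia than in sexual mycelium and in no other comparison, so the rises against the 2 vegetative groups have no consensus call there. A stricter set of calls in the authors' deposited table has PCON_03267 lower in 4 comparisons, without protoapothecia against sexual mycelium, and PCON_13421 in none. PCON_03897 and PCON_03126 have no consensus call in the authors' deposited table. Either-direction calls in the authors' deposited table cover 42.6% of gene models for protoapothecia against sexual mycelium, 49.2% against vegetative mycelium and 49.9% against the vegetative pool. They cover 27.2% for sexual against vegetative mycelium, 27.7% for sexual mycelium against the pool and 9.7% for vegetative mycelium against the pool.

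Per kilobase of mRNA, which allows levels of different genes to be set side by side, the order of the 3 genes changed between tissues. In protoapothecia the mean level was 103.1 CPM per kb for PCON_13421, 48.3 for PCON_03897 and 1.15 for PCON_03267, though PCON_03897 exceeded PCON_13421 in library C. In sexual mycelium the mean levels were 33.8 CPM per kb for PCON_13421, 20.9 for PCON_03897 and 4.17 for PCON_03267. In vegetative mycelium PCON_03267 came first with 71.5 CPM per kb, before PCON_13421 with 43.3 and PCON_03897 with 18.8. In the vegetative pool the mean levels were 45.6 CPM per kb for PCON_13421, 35.6 for PCON_03267 and 19.5 for PCON_03897.

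Ratios within a library do not depend on scaling between libraries. The log2 ratio of PCON_13421 to PCON_03267 per kilobase was 6.09, 8.09 and 5.64 in protoapothecia A, B and C. It was 2.71 and 3.41 in sexual mycelium, −0.84 and −0.60 in vegetative mycelium and 0.50 and 0.24 in the vegetative pool. All protoapothecium libraries lay above all mycelium libraries, with means of 6.61 ± 1.31 in protoapothecia (SD, n = 3) and 0.90 ± 1.76 in the mycelia (SD, n = 6). The difference of 5.70 had an exact two-sided permutation p of 0.0238, the smallest that 84 splits of 9 libraries allow, and 0.0714 after adjustment over the 3 ratios. The ratio of PCON_03897 to PCON_03267 averaged 4.28 ± 1.99 in protoapothecia and −0.16 ± 2.02 in the mycelia (exact two-sided permutation p = 0.0476, adjusted 0.0714), and its groups overlapped. The ratio of PCON_13421 to PCON_03897 was 3.74, 3.91 and −0.68 in protoapothecia A, B and C and 0.64 to 1.63 in the mycelia (exact two-sided permutation p = 0.167, adjusted 0.167). The mycelium libraries of these tests come from 3 different groups whose ratios to PCON_03267 differ, yet the splits treat them as interchangeable. These p-values therefore do not measure the spread between independent samples.

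**Figure D3:**
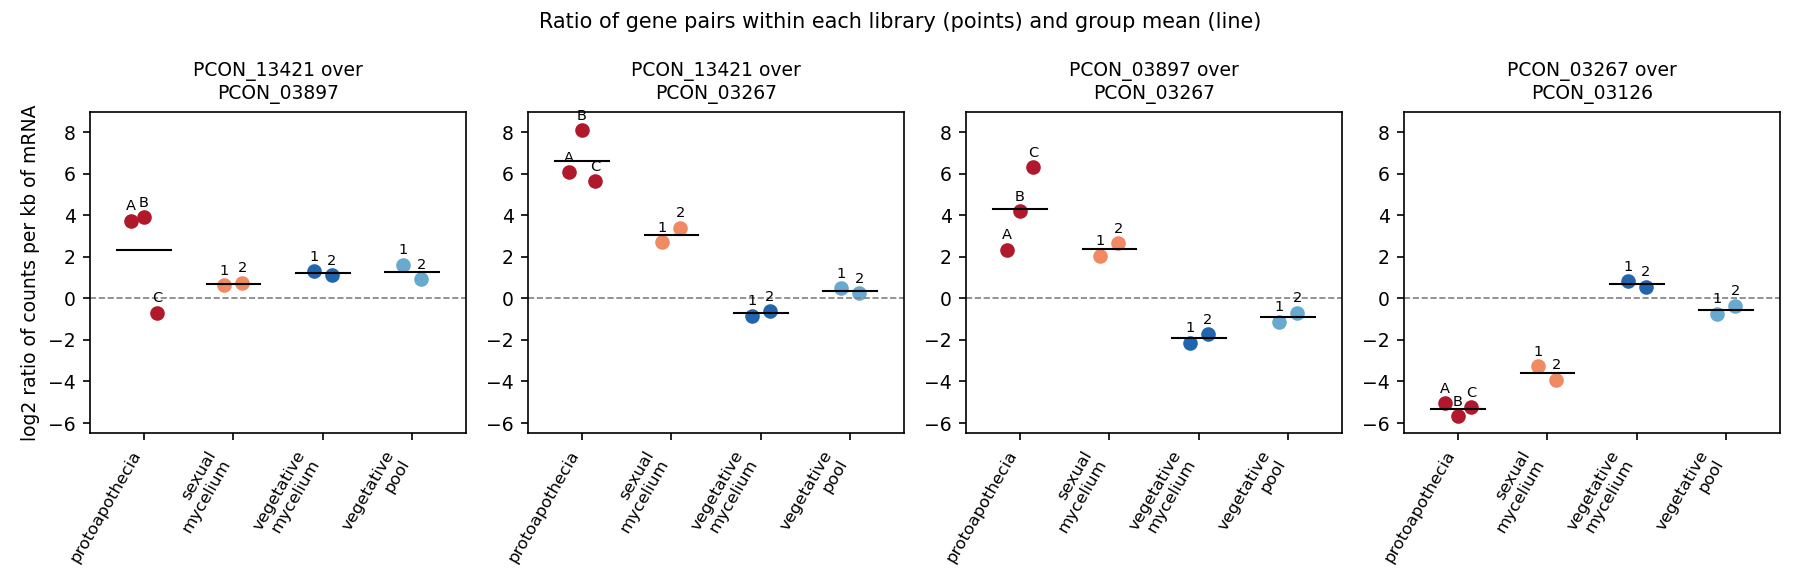
Log2 ratio of counts per kilobase of mRNA for 4 pairs of genes in each library, by group, with letters or numbers for replicates and a line at the group mean; 0 marks equal levels. PCON_13421 over PCON_03267 lies between 5.64 and 8.09 in protoapothecia, and protoapothecia C lies at −0.68 for PCON_13421 over PCON_03897 where A and B lie at 3.74 and 3.91.

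Genes described as NADPH oxidases or their regulators included members called in either direction. The list of 9, PCON_03267 included, had 1 member higher and 4 lower in protoapothecia than in sexual mycelium, with a median log2 fold change of −0.23 against −0.14 for all genes tested, of which 26.7% were called higher and 34.5% lower. Against vegetative mycelium 1 was higher and 5 lower, and against the vegetative pool 1 was higher and 4 lower, with medians of −0.62 and −0.63 against 0.15 and 0.05 for all genes. The background there was 36.4% of genes higher and 32.8% lower against vegetative mycelium, and 34.8% higher and 34.4% lower against the pool. Without PCON_03267, the other 8 genes had 1 higher and 3 lower against sexual mycelium (median −0.19), 1 higher and 4 lower against vegetative mycelium (median −0.30) and 1 higher and 3 lower against the pool (median −0.42). Without scaling factors the count against sexual mycelium was 0 higher and 5 lower.

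Among the regulators, the gene described as NADPH oxidase activator 1, PCON_05808, differed most between culture types. It averaged 18.1 ± 8.51 CPM in protoapothecia (SD, n = 3) and 11.2 ± 0.620 CPM in sexual mycelium (SD, n = 2). Vegetative mycelium held 2 counts of it over both libraries and the vegetative pool 11 counts, so levels are given there and no fold. Protoapothecia and sexual mycelium differed by 0.71 on the log2 scale, short of the threshold (SE 0.570, edgeR adjusted p = 0.305), and both lay above the vegetative groups with edgeR adjusted p below the threshold in each comparison. PCON_05808 was thus high in the groups where PCON_03267 was low. Neutrophil cytosol factor 2 (PCON_11011), named for the mammalian p67phox, had 337 ± 129 CPM in protoapothecia, against 255 ± 36.3 CPM in sexual mycelium, and a log2 fold change of 0.40 (edgeR adjusted p = 0.298).

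The GTPase Rac1 gene (PCON_08387), whose product activates NADPH oxidases, fell to 55.5 ± 9.89 CPM in protoapothecia, against 158 ± 18.4 CPM in sexual mycelium, a log2 fold change of −1.50 (edgeR adjusted p = 0.000271). It also fell against each vegetative group. The exchange factor scd1 (PCON_08710), the fission yeast counterpart of Cdc24, fell by 0.80 against sexual mycelium (edgeR adjusted p = 0.0213), a call lost without sexual mycelium 1 (−0.51, edgeR adjusted p = 0.21). The scaffold scd2/ral3 (PCON_09345), the fission yeast counterpart of Bem1, rose by 0.77 (edgeR adjusted p = 0.0294), and was not called against vegetative mycelium (0.15) or the pool (0.43). The rise against sexual mycelium was lost without protoapothecia A, sexual mycelium 1 or sexual mycelium 2 (0.76, 0.86 and 0.68, highest edgeR adjusted p = 0.159). Cdc42 (PCON_10718), a polarity GTPase, had a log2 fold change of −0.23 against sexual mycelium (edgeR adjusted p = 0.383). It fell by 0.62 against vegetative mycelium (edgeR adjusted p = 0.031) and by 0.67 against the vegetative pool (edgeR adjusted p = 0.0222). The call against vegetative mycelium was lost without protoapothecia A, vegetative mycelium 1, vegetative mycelium 2 or vegetative pool 2, with log2 fold changes of −0.56, −0.55, −0.67 and −0.61 (highest edgeR adjusted p = 0.159). The call against the pool was lost without protoapothecia A, vegetative pool 1 or vegetative pool 2, with −0.61, −0.57 and −0.76 (highest edgeR adjusted p = 0.137).

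Among genes described as STRIPAK or PP2A subunits, more were called lower than higher in protoapothecia. Of 11 listed genes, PCON_13421 alone was higher and 6 were lower in protoapothecia than in sexual mycelium, with a median log2 fold change of −0.65 against −0.14 for all genes tested, of which 34.5% were called lower and 26.7% higher. Against vegetative mycelium 2 were higher and 7 lower, where 36.4% of all genes were higher and 32.8% lower. Against the vegetative pool 1 was higher and 6 lower, where 34.8% of all genes were higher and 34.4% lower. No member was called by edgeR in the 3 comparisons among mycelia, where 1 was lower at an unadjusted p below 0.05 and 2 were lower by DESeq2, both counts for sexual against vegetative mycelium, with 0 in the others. With RLE factors the count against sexual mycelium was 1 higher and 5 lower. Without protoapothecia C it was 2 higher and 7 lower, PCON_03897 being among the lower.

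The PP2A regulatory subunit A gene (PCON_04505), the scaffold of the phosphatase, averaged 118 ± 27.1 CPM in protoapothecia and 496 ± 17.8 CPM in sexual mycelium, a log2 fold change of −2.08 (edgeR adjusted p = 6.0e-05). The PP2A-2 catalytic subunit (PCON_13632) fell by 1.33 (edgeR adjusted p = 0.000405) and the regulatory subunit B (PCON_14028) by 0.65 (edgeR adjusted p = 0.0108). The call of the regulatory subunit B was lost without sexual mycelium 1 (−0.61, edgeR adjusted p = 0.0702). The 56 kDa regulatory subunit (PCON_08801) had a log2 fold change of 0.05 (edgeR adjusted p = 0.832). FAM40A (PCON_12605), a STRIPAK subunit, averaged 77.0 ± 6.28 CPM in protoapothecia and 136 ± 19.8 CPM in sexual mycelium (log2 fold change −0.82, edgeR adjusted p = 0.00438), and this call too was lost without sexual mycelium 1 (−0.66, edgeR adjusted p = 0.0537).

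Of 3 genes described as the germinal centre kinase svkA, 2 fell. PCON_12486 averaged 2.95 ± 1.20 CPM in protoapothecia and 67.6 ± 1.31 CPM in sexual mycelium, a log2 fold change of −4.52 (edgeR adjusted p = 9.1e-06). PCON_08268 had a log2 fold change of −1.71 (edgeR adjusted p = 0.000224), and PCON_03740 had one of 0.20 (edgeR adjusted p = 0.457). The phocein gene (PCON_04172) had 36.8 ± 36.3 CPM in protoapothecia and 19.8 ± 0.279 CPM in sexual mycelium and was not called (edgeR adjusted p = 0.29). It overlaps another gene model, and since the use of strand in counting is not given, its counts are uncertain.

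**Figure D4:**
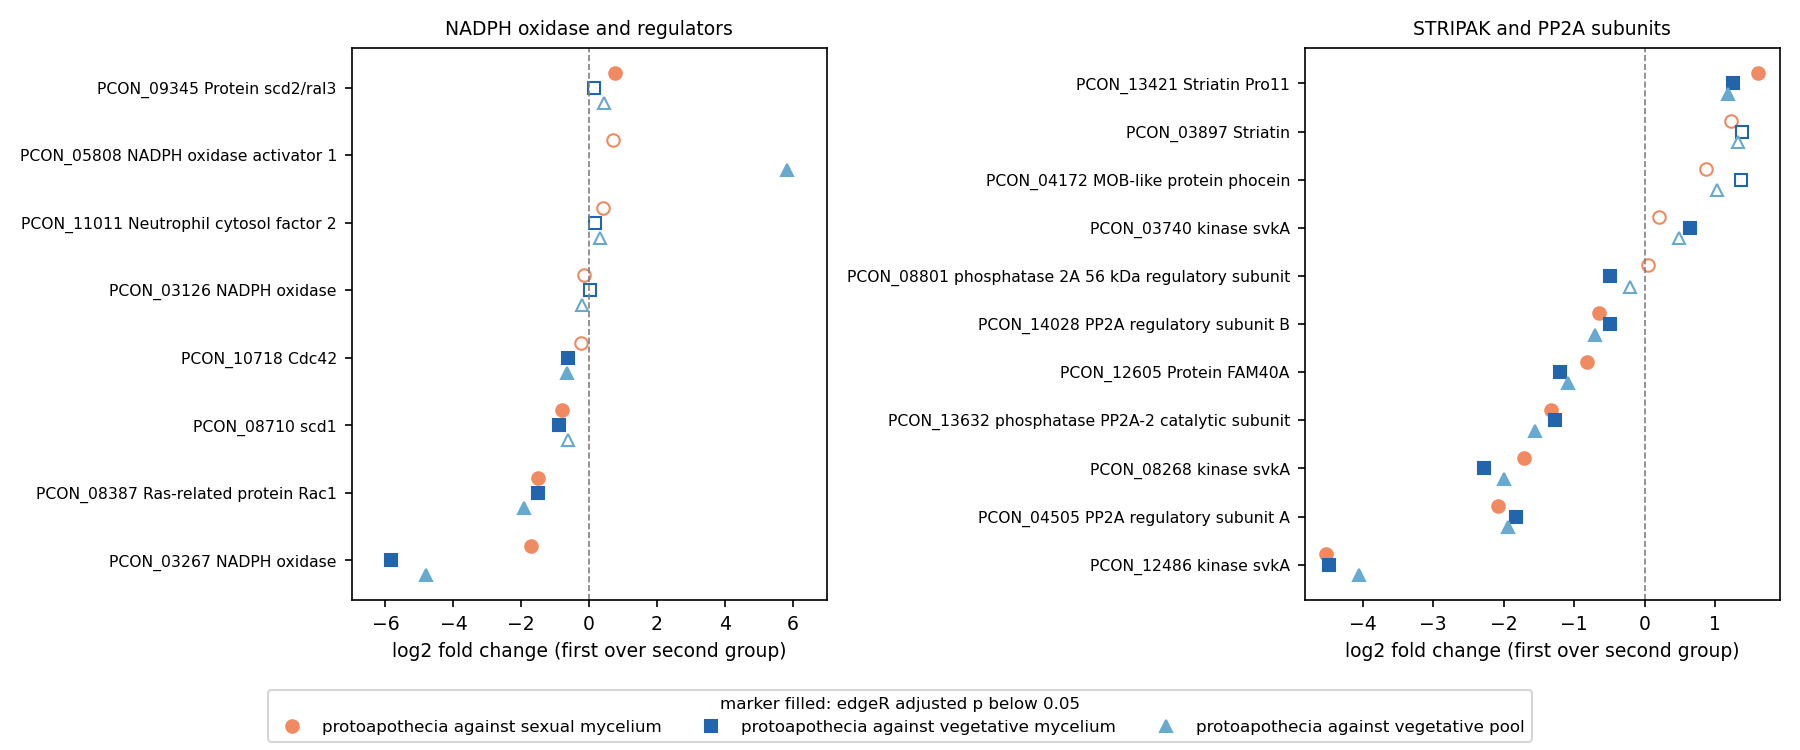
Log2 fold change in protoapothecia against each of the 3 mycelium groups for the genes described as NADPH oxidases and their regulators (left, 8 of the 9 genes) and as STRIPAK or PP2A subunits (right, 11 genes); filled markers have an edgeR adjusted p below 0.05. PCON_13421 is at the top of the right panel at 1.61 against sexual mycelium and PCON_12486 at the bottom at −4.52; the point of PCON_05808 against vegetative mycelium, which had 2 counts, is left out.

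Other lists gave the surroundings of the pathway. Ferric reductases reduce metal ions. Of 8 listed ferric reductase or metalloreductase genes, 7 of which carry the 3 domains of PCON_03267, 0 were higher (also 0 at an unadjusted p below 0.05, and 1 by DESeq2) and 2 lower in protoapothecia than in sexual mycelium by edgeR. The lower genes were PCON_11956 at −3.51 (edgeR adjusted p = 0.00021) and PCON_13789 at −2.05 (edgeR adjusted p = 0.000344). Of all genes tested, 26.7% were higher and 34.5% lower there. Against vegetative mycelium 3 of the 8 were higher and 2 lower, where 36.4% of all genes were higher and 32.8% lower. Against the vegetative pool 2 were higher and 2 lower, where 34.8% of all genes were higher and 34.4% lower. Several of these higher calls were lost when 1 library was left out. Of 14 genes for the removal of superoxide and peroxide, 8 were higher and 6 lower in protoapothecia than in sexual mycelium. In that comparison 26.7% of all genes were higher and 34.5% lower, and without scaling factors 4 of the 14 were higher and 6 lower. Those with the smallest p were among the lower: cytochrome c peroxidase (PCON_01441), which reduces hydrogen peroxide, at −1.98 (edgeR adjusted p = 3.7e-05), and Cu-Zn superoxide dismutase (PCON_05187), which converts superoxide to hydrogen peroxide, at −2.47 (edgeR adjusted p = 4.1e-05). Against vegetative mycelium 3 of the 14 were higher and 4 lower, where 36.4% of all genes were higher and 32.8% lower. Against the vegetative pool 4 were higher and 6 lower, where 34.8% of all genes were higher and 34.4% lower. Catalase-1 (PCON_04485), named after its values were seen because protoapothecia C was its highest library too (391.5 CPM, lowest protoapothecium library 22.5 CPM), averaged 156 ± 205 CPM in protoapothecia and 18.2 ± 14.9 CPM in sexual mycelium (log2 fold change 3.10, edgeR adjusted p = 0.0459). Its call was lost when any 1 library other than protoapothecia A was left out, and without protoapothecia C the log2 fold change was 1.10 (edgeR adjusted p = 0.226). Calls of several other genes for the removal of superoxide and peroxide, higher and lower, were also lost when 1 library was left out.

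Of 9 MAP kinase module genes, 2 were higher and 6 lower in protoapothecia than in sexual mycelium, with a median log2 fold change of −1.63 against −0.14 for all genes, of which 26.7% were called higher and 34.5% lower. The MAP kinase kinase skh1/pek1 (PCON_03568), of the cell integrity pathway in fission yeast, rose to 677 ± 162 CPM in protoapothecia, against 171 ± 17.2 CPM in sexual mycelium (log2 fold change 1.98, edgeR adjusted p = 0.000137). The MAP kinase kinase kinase wis4 (PCON_12698), of the stress pathway in fission yeast, fell by 2.41 (edgeR adjusted p = 0.000109). The 4 light receptor genes all fell against sexual mycelium, and 3 of them fell against each vegetative group. Of all genes tested, 32.8% were called lower against vegetative mycelium and 34.4% against the vegetative pool. The remaining gene, cryptochrome DASH (PCON_04123), averaged 6.41 CPM in protoapothecia, 5.89 CPM in vegetative mycelium and 4.28 CPM in the pool. The summed level of the 4 genes was 55.4 to 77.4 CPM in protoapothecia and 293.6 to 384.6 CPM in the mycelium libraries. Their part in the levels of PCON_03267 was not tested.

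Likeness of pattern was measured as Pearson's r of log2 CPM over the 9 libraries, which fall into 4 groups and share their scaling. Candidates were 5272 genes with a described product. The genes most like PCON_03267 were chitin synthase C (PCON_06619, r = 0.989), a high-affinity glucose transporter (PCON_10432, r = 0.988) and pisatin demethylase (PCON_02468, r = 0.987), and 311 candidates (5.90%) reached an r of 0.9. Chitin synthase C had at most 24.6 CPM in protoapothecia, 41.3 and 32.4 CPM in sexual mycelium, and 70.3 to 122.6 CPM in the vegetative libraries. It shared the order of the groups at a smaller range.

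The genes most like PCON_13421 were the secretory component SHR3 (PCON_12650, r = 0.997), the probable tRNA modification protein pgp1 (PCON_11513, r = 0.997) and the replication licensing factor mcm4 (PCON_10174, r = 0.996), and 497 candidates (9.43%) reached 0.9. SHR3 had 934.3, 2087 and 741.3 CPM in protoapothecia A, B and C and 73.1 to 199.8 CPM in the mycelia, with B highest as for PCON_13421. For PCON_03897 only 5 candidates (0.0948%) reached 0.9, led by heat shock protein hsp9 (PCON_08624, r = 0.929), sterol 3-beta-glucosyltransferase (PCON_05014, r = 0.923) and a mitochondrial Lon protease (PCON_02845, r = 0.915). All 3 were highest in protoapothecia C. Heat shock protein hsp9 had 0.299, 0.428 and 16.6 CPM in protoapothecia A, B and C and 0.270 to 1.50 CPM in the mycelia. Among the 3 genes themselves, r was −0.68 for PCON_03267 with PCON_13421, 0.05 for PCON_03267 with PCON_03897 and −0.17 for PCON_13421 with PCON_03897.

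Neighbouring genes did not share these patterns throughout. PCON_03268, a hypothetical protein 3465 bases from PCON_03267, had 10.9, 12.4 and 19.2 CPM in protoapothecia, 3.02 and 1.95 CPM in sexual mycelium, 41.9 and 40.5 CPM in vegetative mycelium and 29.3 and 34.7 CPM in the vegetative pool. Like PCON_03267 it fell in sexual against vegetative mycelium (log2 fold change −4.05, edgeR adjusted p = 0.000136), but in protoapothecia against sexual mycelium it rose by 2.52 (edgeR adjusted p = 0.000314). The DNA repair gene rad14 (PCON_13420), 434 bases from PCON_13421, had a log2 fold change of 0.14 in protoapothecia against sexual mycelium (edgeR adjusted p = 0.723). Threonine aspartase 1 (PCON_03896), 264 bases from PCON_03897, had 19.8, 5.77 and 29.9 CPM in protoapothecia and 110.5 and 252 CPM in sexual mycelium (log2 fold change −3.26, edgeR adjusted p = 0.000954). The splicing factor brr2 (PCON_03898), 893 bases away on the other side, had 175.8, 228.8 and 125.2 CPM in protoapothecia, with C the lowest of the 3. The genes of unknown function next to PCON_03267 and PCON_13421 on their other sides (PCON_03266 and PCON_13422) were at or below 1.39 CPM in every library and were not tested.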

How the data were processed

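The deposited table holds raw read counts for every gene model and library, with gene model lengths and domains and the authors' consensus calls as a score of −1, 0 or 1, per the file headers. The authors used CASAVA 1.8.2 and DESeq, per the submitters' processing notes. Which aligner, counter, build and strand setting they used is not given in the sources used here. There were 0 count columns outside the 9 libraries. Locus tags of 13367 genes matched the RefSeq gene table (assembly Pcon_v1), used to check the tags; gene names are the descriptions of the deposited table.

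edgeR 4.0.16 (with limma 3.58.1, R 4.3.3) was fitted to the counts (filterByExpr with minimum count 10 and minimum total 15, TMM scaling, robust quasi-likelihood test over 4 groups with 5 residual degrees of freedom, checked on simulated data). Benjamini-Hochberg adjustment covered the 11787 genes tested. DESeq2 1.42.0 was an alternative. Ratios within libraries used a prior count of 0.5, and likeness log2 CPM with a prior count of 2. Replicate libraries differed by more than sampling noise, with a chi-square per degree of freedom of at least 23.5. Genes were named by a rule: the 3 genes, both pathway lists, from each further list the 2 genes of smallest p in protoapothecia against sexual mycelium, 3 most alike genes each, and the nearest neighbours. Catalase-1, PCON_10598, PCON_08389 and PCON_04123 were added outside the rule after their values were seen. The genes and lists were chosen with earlier results of these data known. In the list of regulators, 1 gene is counted but not reported here. A list of hydrophobin markers matched 0 genes.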

Additional observations from a re-analysis of the deposited data

How the results depend on the processing

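Besides the main values, alternatives covered scaling, low-count filters, groups in the fit, DESeq2, the replicate block and the removal of each library in turn. Among refitted fold changes of the 3 genes, 277 kept their direction and their side of the threshold, 7 changed sign and 4 newly passed. A fold change without a p-value, as for PCON_03897 by DESeq2, was counted as not called. The 7 that changed sign all concern PCON_03897. Without protoapothecia C these were −1.36 against sexual mycelium, −1.21 against vegetative mycelium and −1.26 against the vegetative pool, all past the threshold. The others stayed short of it: −0.25 for sexual mycelium against the pool without pool 1, and, for vegetative mycelium against the pool, 0.0015 with RLE scaling, 0.05 without vegetative mycelium 1 and 0.40 without pool 2. The 4 that newly passed lie among the mycelia. For PCON_13421 in sexual mycelium against the pool the fit on mycelium libraries gave −0.43 with the replicate block (edgeR adjusted p = 0.0361) and −0.43 without it. For PCON_03267 in vegetative mycelium against the pool, the log2 fold change was 1.02 with 2 groups in the fit and 1.0 with mycelium libraries only, without the block (edgeR adjusted p = 0.0404). The cause was not tested. Fits on mycelium libraries without the block, and counts of list members under other scalings or without protoapothecia C, were chosen after seeing the data.

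The labels do not say whether replicate numbers pair the mycelium samples, and correlations between so few libraries cannot settle it. The correlation of deviations between same-numbered libraries was 0.119 for sexual and vegetative mycelium, −0.157 for sexual mycelium and the pool and −0.0431 for vegetative mycelium and the pool. Genes called between vegetative mycelium and the pool were 613 in the main fit, 1635 with 2 groups in the fit, 1076 with the replicate block, 1330 without it on the same libraries and 1229 by DESeq2.

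With 1 library left out at a time, genes called ranged from 5496 to 7542 for protoapothecia against sexual mycelium, 6738 to 8492 against vegetative mycelium and 6794 to 8471 against the pool. They ranged from 2263 to 4276 for sexual against vegetative mycelium, 2265 to 4239 for sexual mycelium against the pool and 84 to 875 for vegetative mycelium against the pool. PCON_03267 in protoapothecia against sexual mycelium ranged from −2.04 to −1.33 (highest edgeR adjusted p = 0.0473) and PCON_13421 from 1.41 to 1.8. For PCON_03897 the highest values were 1.74, 1.89 and 1.84 in protoapothecia against sexual mycelium, vegetative mycelium and the pool, each without protoapothecia A. For sexual mycelium against the pool its highest value was 0.55, and for vegetative mycelium against the pool its lowest was −0.40. A group left with 1 library is assumed to vary like the others. The lowest depth, in protoapothecia B, leaves PCON_03267 there at 4 counts, which limits the precision of that value.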
